A study of Mus musculus with 2 samples.

Results

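First-intron peaks are the regions of open chromatin that the deposited peak annotation places in intron 1 of a transcript. They were chosen by that annotation alone, with no use of the measured signal, and they numbered 9482 of 63316 peaks, or 15.0%, in the first introns of 4961 host genes. The cells were cardiac fibroblasts in primary culture from mice, which received either a scrambled siRNA (SCR, labelled NC) or an siRNA to Piezo2 (siPiezo2) and then TGF-β (5 ng/ml, 24 h), and ATAC-seq gave 1 library of each. Both conditions therefore carried the TGF-β stimulus, and no unstimulated cells were part of the comparison. In the deposited design text a Cre-driven knockout of Tet3 stands in place of the siRNA, and minced tissue and a different kit are named in the methods. These differences could not be settled, and the groups used here are those of the labels, with the control siRNA, dose and time as the study's methods give them.

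ATAC-seq uses a transposase that cuts DNA where nucleosomes do not block it, so that reads pile up over promoters and enhancers in use. The first intron lies just after the start of a gene, is often the longest intron, and is a common place for enhancers and for alternative start sites. In fibroblasts that TGF-β turns into myofibroblasts, genes of the matrix, the actin cytoskeleton and its adhesions are known to be driven in part from such intronic elements. Piezo2 is a mechanically gated cation channel of the plasma membrane.

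Each peak had a read density in each library, counted by the authors in a window around the peak and normalized between the libraries. The values below are the log2 ratio of siPiezo2 to SCR after adding 1 to both densities, so that a negative value is a lower density after Piezo2 knockdown. A peak was counted as lowered when it lay below 0.66 of SCR and as raised when it lay above 1.5 of SCR. Reads recovered from the densities came to 4615335 in SCR and 2754046 in siPiezo2 over all peaks, and to 678152 and 396698 over the first-intron peaks. A median first-intron peak rested on 59 reads in SCR and 36 in siPiezo2. Without replicates no difference could be set against the spread between samples, so no test of the conditions was possible, and the 95% exact binomial (Clopper-Pearson) intervals cover counting error only.

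Fibroblast markers had the most signal of the marker lists examined. Of 8 fibroblast markers, 7 had a peak, all but Thy1, and their densities added up to 986 (SCR) and 905 (siPiezo2). Smooth muscle and pericyte markers summed to 471 in SCR and 387 in siPiezo2, with peaks at 5 of 6 and none at Kcnj8. Endothelial markers summed to 376 and 405, with peaks at 5 of 6 and none at Tie1. Cardiomyocyte markers summed to 146 and 152 with no peak at Myh6, Nppa or Myl2, and immune markers summed to 183 and 151 with no peak at Cd68, Lyz2 or Adgre1. The part of other cell types in the first-intron values was not tested.

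First-intron chromatin was on balance less accessible in siPiezo2 than in SCR on the deposited scale. The median first-intron density was 24.9 in SCR and 22.2 in siPiezo2. The median log2 ratio was -0.15, with quartiles of -0.42 and 0.10, and 6263 of the 9482 peaks, or 66.1%, were lower in siPiezo2. Of the first-intron peaks 1337, or 14.1%, were lowered, against 13.5% of all peaks, and 261, or 2.75%, were raised, against 3.21% of all peaks. Both shares were near those of the whole table, and nothing particular to first introns is read from them.

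The size and even the sign of this tilt depended on how the libraries were put on a common scale. With the recovered reads scaled to the same total, and the same factor for every peak, the first-intron median was 0.0012 and the counts were 734 lowered and 703 raised. Lowered peaks then made up 51.1% of the first-intron peaks past either threshold, compared with 83.7% on the deposited scale. The share was 69.7% with both libraries at the same total density, 59.8% under median-of-ratios scaling and 58.8% under trimmed mean scaling. The median over all peaks moved in step, from -0.13 on the deposited scale to 0.02 with reads at the same total. Median-of-ratios and trimmed mean scaling put it at 0 and 0.0035. A value near the median of all first introns therefore has no fixed sign, and for the gene lists below the number of genes under that median is given beside the number below 0.

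Later introns and distal regions were close to first introns, and promoters stood apart. The 17087 peaks of later introns had a median log2 ratio of -0.17, with 15.3% lowered and 3.29% raised. The 19430 distal intergenic peaks had a median of -0.18, with 16.6% lowered and 4.02% raised. The 9251 promoter peaks, which lay within 1 kb of an annotated start of transcription (TSS), had a median of -0.03, with 5.86% lowered and 1.98% raised. With reads at the same total the medians were 0.0077 for later introns, 0.02 for distal peaks and 0.05 for promoters. First introns thus stayed below promoters under both scales, by 0.12 on the deposited scale and by less with reads, and these gaps had no replicate check.

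**Figure D1:**
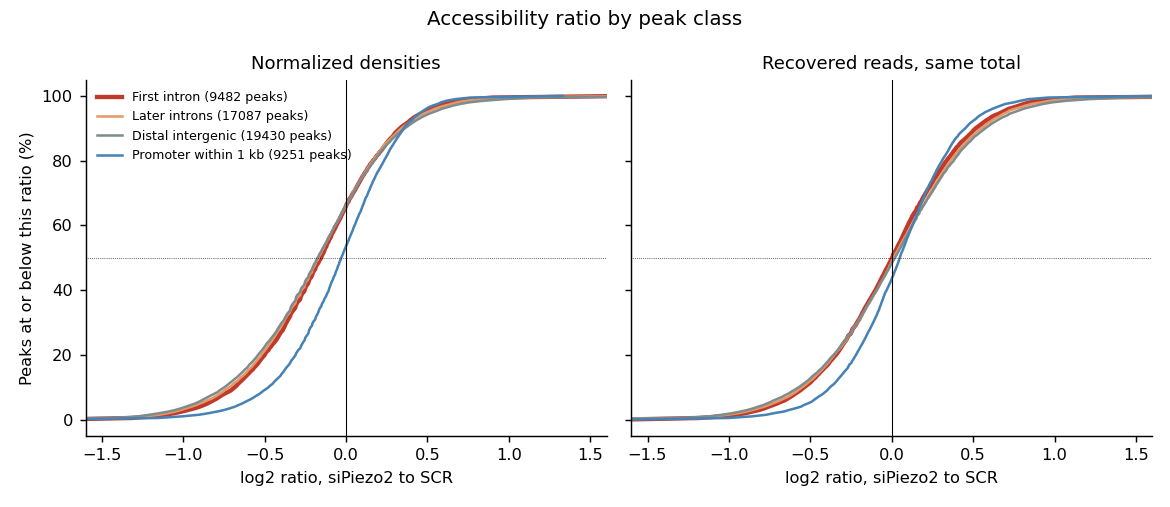
Cumulative share of peaks (vertical axis, percent) at or below each log2 ratio of siPiezo2 to SCR (horizontal axis) for 9482 first-intron, 17087 later-intron, 19430 distal intergenic and 9251 promoter peaks, on the deposited densities (left) and on recovered reads at the same total (right). The first-intron line runs with those of later introns and distal regions and crosses the dotted 50% line at -0.15 on the left and at 0.0012 on the right, while the promoter line lies to the right of it over its lower part.

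Which library a peak was called in went with its ratio. Of the first-intron peaks, 6526 were called in SCR only, 2735 in both libraries and 221 in siPiezo2 only. The first 2 groups made up 68.8% and 28.8%, against 64.0% and 33.8% of all peaks. The first-intron medians were -0.23 for those called in SCR only, -0.01 for those called in both and 0.49 for those called in siPiezo2 only. Over all peaks they were much the same, at -0.23, 0.0025 and 0.58. First-intron peaks called in both had 5.96% lowered and 4.46% raised, which leaves little of the tilt. The shares were near the 5.36% and 4.41% of all peaks called in both. The calls were made from the same libraries as the densities, so the calls and the ratios are not independent, and SCR held more reads.

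Strength set first introns between promoters and the other classes. In the strongest 25% of all peaks by mean density lay 24.6% of first-intron peaks, 17.1% of later-intron peaks, 15.2% of distal peaks and 51.6% of promoter peaks. The 2337 strong first-intron peaks had a median log2 ratio of -0.12, with 10.7% lowered and 2.95% raised, compared with 9.54% and 2.88% of the strong peaks of all classes. On the scale of reads at the same total their median was -0.09, while that of the weakest 25% of first-intron peaks was 0.04. The median of the strong first-intron peaks was thus below 0 on these scales. On the deposited scale it was nearer to 0 than the all-peak median of -0.13, which median-of-ratios scaling puts at 0, so its sign is not fixed. Strong peaks of later introns and distal regions were lower still with reads at the same total, at -0.14 and -0.14.

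Most first-intron peaks lay well inside the gene. The median distance from the start of the host transcript to the middle of the peak was 14277 bp, with quartiles of 4191 and 37587 bp. Peaks close to the start were stronger. Median SCR density was 33.8 within 500 bp of the start and 35.7 between 500 and 1000 bp, and it was 21.0 at more than 100000 bp. The ratio was closest to 0 next to the start, with a median of -0.09 and 7.25% lowered within 500 bp, against 14.1% of all first-intron peaks. Between 500 and 1000 bp the median was -0.12 with 10.6% lowered, between 1000 and 2000 bp it was -0.16 with 12.4% lowered, and beyond 100000 bp it was -0.17 with 16.6% lowered. In the classes between, the medians ran from -0.18 to -0.14 with no steady course. At the same total of reads the medians ran between -0.04 and 0.03 with no steady course.

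**Figure D2:**
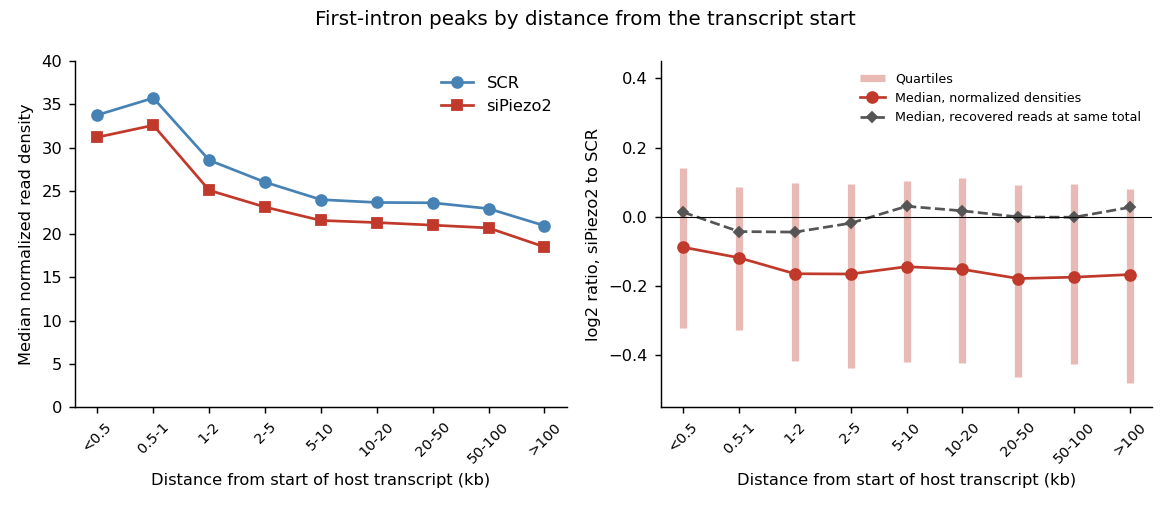
Median normalized read density of first-intron peaks in SCR and siPiezo2 (left) and log2 ratio of siPiezo2 to SCR (right) in 9 classes of distance from the start of the host transcript (horizontal axis, kb). Thick bars are quartiles over peaks, circles are medians on the deposited densities and diamonds are medians of recovered reads at the same total. Density is highest within 1000 bp of the start, at 33.8 and 35.7 in SCR, and the circles lie lower beyond 1000 bp than within 500 bp while the diamonds stay near 0.

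A start site other than that of the host transcript was close to some first-intron peaks. There were 226 peaks that lay over 1 kb from the start of their host transcript but within 1 kb of another TSS, in 193 cases a TSS of the same gene. Their median was -0.10 with 11.1% lowered, close to the -0.10 and 9.04% of the 1007 peaks within 1 kb of the host start. The 6994 first-intron peaks over 3 kb from every TSS had a median of -0.16 with 15.0% lowered. At the same total of reads these medians were -0.02, -0.01 and 0.0077. For 1549 peaks the nearest TSS belonged to another gene than the host, and these had a median of -0.17 with 16.7% lowered, compared with -0.15 and 13.6% for the 7933 peaks nearest to a TSS of their host. Host transcripts of 1 intron and of over 16 introns had medians of -0.14 and -0.16. By gene type, 7675 peaks in protein-coding hosts had a median of -0.15 with 13.7% lowered and 2.55% raised, and 1641 in long noncoding hosts had a median of -0.16 with 16.03% lowered and 3.66% raised, against 13.5% and 3.21% of all peaks.

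The first intron and the promoter of the same gene could be compared in 1561 genes with a promoter peak and a first-intron peak over 2 kb from the start. The median over these genes was -0.17 for the first intron and -0.03 for the promoter, and the first intron was the lower of the pair in 949 genes, or 60.8%. These pairs are given on the deposited scale only. With reads at the same total, the medians over all first-intron and all promoter peaks were closer, at 0.0012 and 0.05. Across the 1561 genes the deposited values had a Pearson correlation of 0.06 and a Spearman correlation of 0.04. In 1875 genes with peaks in first and later introns the medians were -0.18 and -0.17, the first intron was the lower in 50.2%, and the Pearson correlation was 0.13. The genes share both libraries and are not independent replicates, so these are descriptions. Neighbouring first-intron peaks of 1 gene were likewise only weakly alike, with a Pearson correlation of 0.12 over 684 pairs 2 to 5 kb apart and 0.06 over 894 pairs over 20 kb apart. Among the first-intron peaks called in both libraries the ratios had 2.32 times the squared spread that counting alone gives, taken at the median.

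The 2 peaks in the first intron of Piezo2 itself, the gene targeted by the siRNA, were lower in siPiezo2 on the deposited scale. At chr18:63499458-63499832, 20609 bp from the transcript start, the density was 36.9 in SCR and 24.03 in siPiezo2, from 90 and 38 reads, with a log2 ratio of -0.60 (95% interval -1.21 to -0.06). At chr18:63468750-63469086 the density was 15.2 in SCR and 12.7 in siPiezo2, from 34 and 21 reads, with a log2 ratio of -0.24 (-1.12 to 0.57). The interval of the second peak spans 0, and with reads at the same total it was at 0.05 while the first was at -0.49. An siRNA acts on the transcript, so chromatin at the gene is no measure of the knockdown.

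Among strong first-intron peaks, the 10 lowest ratios lay in 9 hosts, and 4 of the 10 peaks were in noncoding RNAs. Each had a siPiezo2 density below the 0.66 threshold. Coordinates are those of the table, which match GRCm39. The lowest peak was at chr7:67943703-67944521 in Fam169b, with a density of 53.5 in SCR and 16.6 in siPiezo2 and a log2 ratio of -1.63 (-2.35 to -1.07). The peak at chr6:144111827-144112342 in Sox5, a transcription factor of cartilage formation, had 51.0 and 18.5, a log2 ratio of -1.41 (-2.10 to -0.87). The peak at chr6:101339284-101339700 in Pdzrn3, a ubiquitin ligase, had 67.7 and 26.7, a log2 ratio of -1.31 (-1.87 to -0.84). The intervals are not adjusted for the choice of the lowest peaks. The peak at chr8:49112744-49113267 in Tenm3, a transmembrane adhesion protein, had 53.4 in SCR and 21.2 in siPiezo2 (log2 ratio -1.29). The peak at chr3:18269641-18270121 in Cyp7b1, an oxysterol hydroxylase, had 52.6 and 21.2, a log2 ratio of -1.28. The peak at chr1:91279893-91280548 in Klhl30 had 62.1 and 25.9, a log2 ratio of -1.23. The other peaks of the 10 were in noncoding hosts, namely a pair with overlapping windows in Gm34455 at -1.28 each, 4732419C18Rik at -1.25 and Sardhos at -1.24. Sardhos was the strongest of the 10, at 101 in SCR and 42.2 in siPiezo2. Once reads were set to the same total all 10 lay between -1.55 and -1.18. The 10 were picked as the lowest, so neither scale tests their difference.

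The 10 highest ratios among strong first-intron peaks lay in 8 hosts, and 4 of the 10 peaks were in noncoding RNAs. The peak at chr11:3143028-3143604, 91 bp from the start of Sfi1, a centrosomal protein, had a density of 283 in SCR and 759 in siPiezo2, with 886 and 969 reads. Its log2 ratio was 1.42 (1.29 to 1.55) on the deposited scale and 0.87 with reads at the same total. The peak at chr9:35216425-35216923 in Gm33838 had 271 in SCR and 575 in siPiezo2, and its log2 ratio of 1.08 became 0.58 with reads at the same total. These were the densest of the 20 peaks, and their ratios moved most with the scale. The peak at chrX:75642287-75642812 in Cldn34d, a member of the claudin family of tight junction proteins, had 43.5 and 105, a log2 ratio of 1.25 (0.91 to 1.63). The peak at chr12:112761283-112761592 in Ahnak2, a large scaffold protein, had 36.3 and 75.7, a log2 ratio of 1.04 (0.65 to 1.47). The peak at chr2:29514691-29515184 in Rapgef1, an exchange factor for the small GTPase Rap1, had 58.3 and 115, a log2 ratio of 0.97 (0.66 to 1.30). The intervals here too are not adjusted for the choice. The remaining peaks were a pair each in 4931408C20Rik at 1.14 and 0.97 and in 2700054A10Rik at 0.996 and 0.98, and 1 in Gm50334 at 0.95. Within each pair the windows overlap, so the peaks share reads. How the authors treated reads that map to several places is not given in the sources used here.

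**Figure D3:**
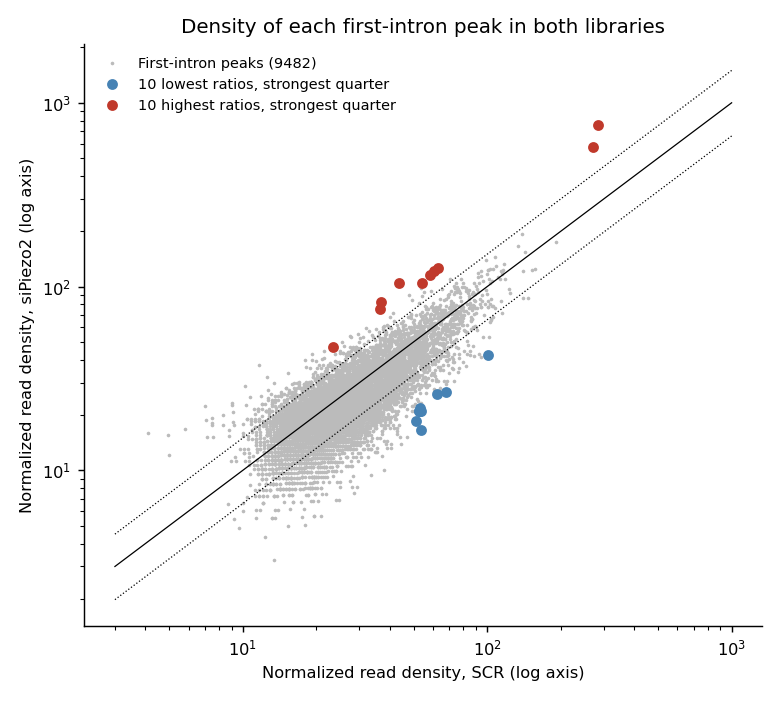
Normalized read density of each of the 9482 first-intron peaks in SCR (horizontal) and siPiezo2 (vertical), both on log axes, with the solid line at equal density and dotted lines at 1.5 and 0.66 of SCR. Blue points are the 10 lowest and red points the 10 highest ratios among strong peaks. The red points of Sfi1 and Gm33838 stand apart at 759 and 575 in siPiezo2, and the blue points lie at 16.6 to 42.2.

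Summed over its first-intron peaks, the median gene had a log2 ratio of -0.15, and 3393 of 4961 genes, or 68.4%, were below 0. By gene, 509 were lowered (10.3%) and 106 were raised (2.14%). After scaling reads to the same total the median gene was at 0.0022 and 49.8% were below 0. Most genes had a single first-intron peak, 3086 of them, and 356 genes had 5 or more, holding 27.0% of all first-intron peaks. Windows of neighbouring peaks can overlap, so that some reads enter a gene's sum more than once, and the gene intervals are then too narrow.

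The genes with the most first-intron peaks were genes of transcription, RNA binding and heparan sulfate synthesis, and all 5 were below 0. Rbms3, an RNA-binding protein, had 27 peaks that summed to 752 in SCR and 618 in siPiezo2 (log2 ratio -0.28, interval -0.40 to -0.17). Rora, a nuclear receptor, had 22 peaks and a log2 ratio of -0.27 (-0.41 to -0.14), and Ext1, an enzyme of heparan sulfate chain synthesis, had 19 peaks and a log2 ratio of -0.27 (-0.40 to -0.14). Maml2 and Maml3, coactivators of Notch signalling, had 21 peaks each and log2 ratios of -0.09 (-0.21 to 0.04) and -0.22 (-0.34 to -0.11). With reads at the same total Maml2 was above 0, at 0.05, and the other members of this group remained below 0, between -0.14 and -0.09.

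In 38 of the 356 genes with 5 or more first-intron peaks, every first-intron peak was below 0, and in 2 every one was above. Of all first-intron peaks 66.1% were below 0, and whether 38 exceeds what that share alone would give was not tested. Cemip, a hyaluronan-degrading factor, was the lowest. Its 5 peaks summed to 299 in SCR and 155 in siPiezo2 (log2 ratio -0.94, interval -1.16 to -0.73), and all 5 were lowered. Across its intron the peaks ran from -1.18 to -0.60. Actn4, an actin crosslinking α-actinin, had 5 peaks summing to 243 in SCR and 146 in siPiezo2 (log2 ratio -0.73, interval -0.96 to -0.51). Hspg2, which encodes the basement membrane proteoglycan perlecan, had 340 and 209, a log2 ratio of -0.70 (-0.89 to -0.52). With reads at the same total the sums were -0.93 for Cemip, -0.67 for Actn4 and -0.72 for Hspg2. These genes were picked because every peak was below 0, so neither scale nor the intervals test their difference.

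Among the other genes with every peak below 0, Pakap had 9 peaks and a log2 ratio of -0.73, and Ddah1, which breaks down an inhibitor of nitric oxide synthase, had 11 peaks and a log2 ratio of -0.63 (-0.82 to -0.46). Creb3l2, a transcription factor of the secretory pathway, had 9 peaks summing to 522 in SCR and 377 in siPiezo2 (log2 ratio -0.47, interval -0.61 to -0.33). Zeb1, a repressor known from epithelial-mesenchymal transition, was at -0.52 with 6 peaks, Cbx5, a heterochromatin protein, at -0.57 with 6, and Bdnf, a neurotrophin, at -0.54 with 5. Over peaks with separate windows Bdnf was at -0.31, and Acot11, at -0.38 over all its peaks, was at -0.24. Nedd9, a docking protein of focal adhesions, was at -0.40, and Macf1, which links actin to microtubules, at -0.32. Others were Gm28403, Slc35f1, 4930500G05Rik, Sertad2, Ncoa3, Enox1, Gm31115, Clmp, Gm4876, Gm30551, Ncam1, Hs6st3, Rasal2, Acot11, Gnaq, Rassf8, Phlpp1, Npas3, Xylt1, Galnt10, Itgb6, Gm48521, Shc4, Arhgap24 and Cpe, between -0.67 and -0.12. On the scale of reads at the same total, the 38 sums ran from -0.93 to 0.07, and 36 stayed below 0 while Shc4 and Cpe did not. In 18 of the 38, those 2 included, the sum came closer to 0 by over 1.5 times or turned above it. The 2 genes with every peak above 0 were noncoding, Gm49944 at 0.53 (0.29 to 0.77) and Gm40437 at 0.37 (0.08 to 0.66).

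Opposite values within 1 intron also occurred, since 43 genes held both a lowered and a raised first-intron peak. Notch2, a receptor of the Notch pathway and named here after its values were seen, is an example. Its peak 591 bp from the start had 37.4 in SCR and 60.3 in siPiezo2 (log2 ratio 0.68, interval 0.26 to 1.12). Its peak 28982 bp from the start had 72.9 and 30.8, a log2 ratio of -1.22 (-1.74 to -0.77). The gene was picked for holding both, so its intervals test nothing.

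Genes of the fibroblast programme were described in 6 lists, each by the sum over a gene's first-intron peaks. The lists were chosen with earlier results of these data known. In the list of extracellular matrix and myofibroblast genes, 27 of 68 had a first-intron peak, 24 of the 27 were below 0 and the median was -0.32, compared with -0.15 for all genes with a first-intron peak. The share below 0 was 88.9%, compared with 68.4% of all such genes, and 20 of the 27 were under the median of all such genes. In this list 3 genes, or 11.1%, were lowered and none was raised, against 10.3% and 2.14% of all such genes. Of the 4 with the highest density, Hspg2 was the low one, as given above. Lamc1, a laminin chain, had 286 in SCR and 239 in siPiezo2 (log2 ratio -0.26, interval -0.45 to -0.08). Col4a1, a collagen of basement membranes, had 255 and 226, a log2 ratio of -0.18 (-0.37 to 0.01). Timp2, an inhibitor of matrix metalloproteinases, went the other way, with 148 in SCR and 183 in siPiezo2 (log2 ratio 0.30, interval 0.08 to 0.53), and its 4 peaks were all above 0. The other lowered genes, named after their values were seen, were Col5a2, a fibrillar collagen chain, at -0.80 (-1.23 to -0.41) and Timp3, another metalloproteinase inhibitor, at -0.68 (-0.98 to -0.40). With reads at the same total Col5a2 was at -0.54 and no longer counted as lowered.

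The actin and contraction list had the lowest median of the 6 on the deposited densities, while the matrix list was the lower of the pair with separate windows (-0.28 compared with -0.26) and in peaks above the median density (-0.33 compared with -0.29). Of 63 genes, 37 had a first-intron peak and the median was -0.34. Below 0 were 27 of the 37, or 73.0% against 68.4% of all such genes, and 25 were under the median of all such genes. In this list 6 genes, or 16.2%, were lowered, against 10.3%, and none was raised. Cald1, the actin- and myosin-binding protein caldesmon, had 305 in SCR and 225 in siPiezo2 (log2 ratio -0.44, interval -0.63 to -0.25). Synpo2, an actin-bundling protein, had 270 and 213, a log2 ratio of -0.34 (-0.54 to -0.15), or -0.22 (-0.44 to -0.0052) over its peaks with separate windows. Actn1, the α-actinin of stress fibres, had the highest summed density of the list, 589 in SCR and 515 in siPiezo2 (log2 ratio -0.19, interval -0.32 to -0.07). The intervals of these 3 genes lie below 0 on the deposited scale, but Actn1 was at -0.05 under median-of-ratios and under trimmed mean scaling. Synpo, an actin-associated protein, did not share this, with 440 in SCR and 461 in siPiezo2 (log2 ratio 0.07, interval -0.07 to 0.20), and it was at -0.02 over its peaks with separate windows and at 0.21 under median-of-ratios and under trimmed mean scaling. The 6 lowered genes, named after their values were seen, were Lmod1, Tns1, Pdlim3, Myl9, Cnn3 and Actn4. Of these, Tns1, Pdlim3 and Myl9 rested, like Lmod1, on a single peak each. Myl9, at -0.76, was at -0.54 with reads at the same total and no longer counted as lowered. On that scale Tagln2, at -0.55 on the deposited densities, counted as lowered at -0.66. Limch1, the highest of the list at 0.43 (0.006 to 0.86), counted as raised there at 0.72. Both were named after their values were seen. Lmod1, an actin nucleator of smooth muscle, had a single peak, chr1:135286768-135287104, with 44.5 in SCR and 14.0 in siPiezo2 (log2 ratio -1.61, interval -2.41 to -1.001). Smooth muscle and pericyte markers were also lower in siPiezo2 over all their peaks, at 471 and 387, and the part of such cells in these values was not tested.

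Of 54 focal adhesion genes, 27 had a first-intron peak and the median was -0.23. Below 0 were 22 of the 27, or 81.5% against 68.4% of all such genes, but 16 were under the median of all such genes. In this list 2 genes, or 7.41%, were lowered, against 10.3%, and none was raised. Pxn, the adhesion scaffold paxillin, had 209 in SCR and 159 in siPiezo2 (log2 ratio -0.39, interval -0.62 to -0.17). Its 2 peaks nearest to the start were the low ones, at -0.60 and -1.19, and their windows overlap. Over the 4 peaks with separate windows Pxn was at -0.25 (-0.49 to -0.01). Lims1, an adaptor of integrin-linked kinase, had 138 and 104, a log2 ratio of -0.41 (-0.69 to -0.14), and Lpp, an adhesion protein of the zyxin family, had 131 and 103, a log2 ratio of -0.35 (-0.63 to -0.07). Nedd9 had 160 in SCR and 121 in siPiezo2. The 2 lowered genes, named after their values were seen, were Tln2 and Tns1. Tln2, which links integrins to actin, was at -0.98 (-1.41 to -0.60). Tns1, which both lists hold, was at -0.95 (-1.58 to -0.42) from a single peak.

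In the TGF-β and SMAD list Smad3 had the highest value. Of 55 genes 25 had a first-intron peak, the median was -0.17 and 1 gene, Bmpr1b, or 4.0%, was lowered, against 10.3%. Bmpr1b, with a single peak, was at -0.63 (-1.44 to 0.07) on the deposited scale and at -0.41, no longer counted as lowered, with reads at the same total. Below 0 were 20 of the 25, or 80.0% against 68.4% of all such genes, and 15 were under the median of all such genes. The other genes above 0, named after their values were seen, were Smad5 at 0.10, Smad9 at 0.08, Tgfbr2 at 0.05 and Smad6 at 0.03. Smad3, a mediator of TGF-β signalling that enters the nucleus on activation, had 11 first-intron peaks that summed to 449 in SCR and 521 in siPiezo2 (log2 ratio 0.21, interval 0.08 to 0.35), and 10 of the 11 were above 0. Counting only peaks with separate windows, 9 peaks gave 364 and 421, a log2 ratio of 0.21 (0.06 to 0.36). Smad3 was at 0.35 under median-of-ratios and 0.36 under trimmed mean scaling. No single peak of Smad3 was raised, and each of their intervals spans 0, so the difference was seen in the sum. Pmepa1, a TGF-β target that restrains the pathway, had 331 in SCR and 249 in siPiezo2 (log2 ratio -0.41, interval -0.59 to -0.23). Smurf1, a ubiquitin ligase of the pathway, was at -0.20 (-0.41 to 0.01) and Bmp6, a ligand of the family, at -0.16 (-0.37 to 0.04).

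**Figure D4:**
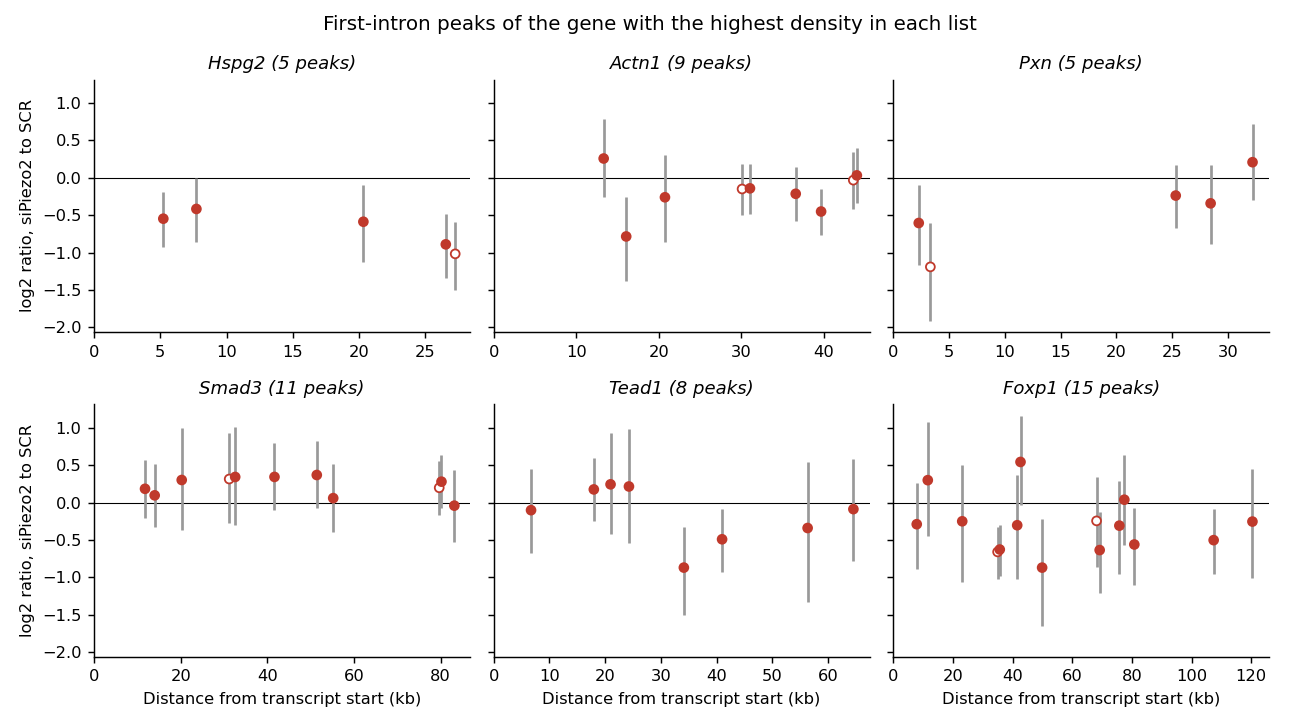
Log2 ratio of siPiezo2 to SCR (vertical) of each first-intron peak against its distance from the start of the host transcript (horizontal, kb) in Hspg2, Actn1, Pxn, Smad3, Tead1 and Foxp1, the gene with the highest first-intron density in each list. Lines are 95% exact binomial intervals for counting error. Open points have a counting window that overlaps that of a filled neighbour, so a filled point can overlap an open one. All 5 peaks of Hspg2 lie below 0, 10 of 11 of Smad3 lie above 0, and the other genes hold both.

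Transcription factors and cofactors of mechanical signalling were mixed. In the list for SRF, YAP, TEAD and AP-1, 24 of 57 genes had a first-intron peak and the median was -0.18. Below 0 were 15 of the 24, or 62.5% against 68.4% of all such genes, and 13 were under the median of all such genes. In this list 3 genes, or 12.5%, were lowered, against 10.3%, and none was raised. Tead1, a DNA-binding partner of YAP and TAZ, had 8 peaks summing to 249 in SCR and 218 in siPiezo2 (log2 ratio -0.19, interval -0.39 to -0.0007). Within that intron, the peak 34122 bp from the start had 40.2 and 21.5, a log2 ratio of -0.87 (-1.51 to -0.32), while the 3 peaks between 17970 and 24271 bp were above 0. Bach2, a repressor at AP-1-like sites, was at -0.28 (-0.52 to -0.04), Vgll4, a TEAD cofactor, at -0.28 (-0.53 to -0.03), and Vgll3, another, at -0.12 (-0.42 to 0.17). Vgll3 was at 0.02 under median-of-ratios and trimmed mean scaling. The lowered genes, named after their values were seen, had a single peak each. They were Stk3 and Lats2, kinases of the Hippo pathway, at -0.999 (-1.84 to -0.32) and -0.71 (-1.33 to -0.16), and Maff, a small Maf protein, at -0.77 (-1.28 to -0.31). Lats2 was at -0.59 with reads at the same total and no longer counted as lowered.

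The list of resting fibroblast and identity factors was the one with raised genes. Of 60 genes 21 had a first-intron peak and the median was -0.12. Below 0 were 14 of the 21, or 66.7% against 68.4% of all such genes, and 9 were under the median of all such genes. In this list 3 genes, or 14.3%, were lowered, against 10.3%, and 2, or 9.52%, were raised, against 2.14%. Foxp1, a forkhead repressor, had 15 peaks summing to 592 in SCR and 442 in siPiezo2 (log2 ratio -0.42, interval -0.55 to -0.29), with 12 of 15 below 0, and it was at -0.28 under median-of-ratios and under trimmed mean scaling. Sox5, summed over its 10 peaks, was at -0.32 (-0.51 to -0.13), Nfib, a nuclear factor I protein, at -0.12 (-0.35 to 0.12), and Gata4, a cardiac GATA factor, at 0.12 (-0.18 to 0.42). Nfib turned to 0.07 with reads at the same total. The raised genes, named after their values were seen, were Prrx1, a homeobox factor of mesenchyme, and Klf15, a Krüppel-like factor. Prrx1 had 35.1 in SCR and 64.1 in siPiezo2 over 2 peaks, a log2 ratio of 0.85 (0.44 to 1.30). Klf15 had 23.8 and 42.8 at a single peak 1096 bp from its start, a log2 ratio of 0.82 (0.32 to 1.38). The lowered genes, also named after their values were seen, had a single peak each. They were Foxo1 at -0.96 (-2.08 to -0.09), Lrp1 at -0.87 (-1.28 to -0.49) and Dpt at -0.79 (-1.32 to -0.31).

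With reads set to the same total, the actin and matrix lists again had the lowest medians. The matrix list was then at -0.18 with 21 of 27 genes below 0, and the actin list at -0.20 with 27 of 37, compared with 0.0022 for all genes with a first-intron peak. Focal adhesion was at -0.05, TGF-β and SMAD at -0.09, and SRF, YAP, TEAD and AP-1 at -0.07. The list of resting fibroblast and identity factors was above 0, at 0.06, and it was at 0.01 under median-of-ratios scaling, 0.02 under trimmed mean scaling and 0.11 in peaks called in both libraries. In peaks called in both libraries the SRF, YAP, TEAD and AP-1 list was the lowest, at -0.10, the actin list was at -0.09 and the matrix list at -0.04. Of the 4 densest genes of each list, the sums that came closer to 0 by over 1.5 times with reads at the same total were Lims1 at -0.16, Nedd9 at -0.22, Lpp at -0.23, Synpo2 at -0.20, Lamc1 at -0.17, Col4a1 at -0.09, Smurf1 at -0.11, Tead1 at -0.09, Bach2 at -0.13 and Sox5 at -0.14. Under median-of-ratios scaling those closer to 0 by as much were Lims1 at -0.27, Nedd9 at -0.26, Pmepa1 at -0.27, Pxn at -0.25, Lpp at -0.21, Synpo2 at -0.21, Sox5 at -0.18, Bach2 at -0.14, Vgll4 at -0.14, Lamc1 at -0.12, Smurf1 at -0.06, Tead1 at -0.05, Col4a1 at -0.04 and Bmp6 at -0.02, beside Actn1 above, and Nfib turned to 0.02. Gata4 moved away from 0, to 0.26 under median-of-ratios scaling and 0.24 with reads at the same total. At the same total density these sums lay between their values on the deposited scale and under median-of-ratios scaling. The lists were not tested against other genes.

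**Figure D5:**
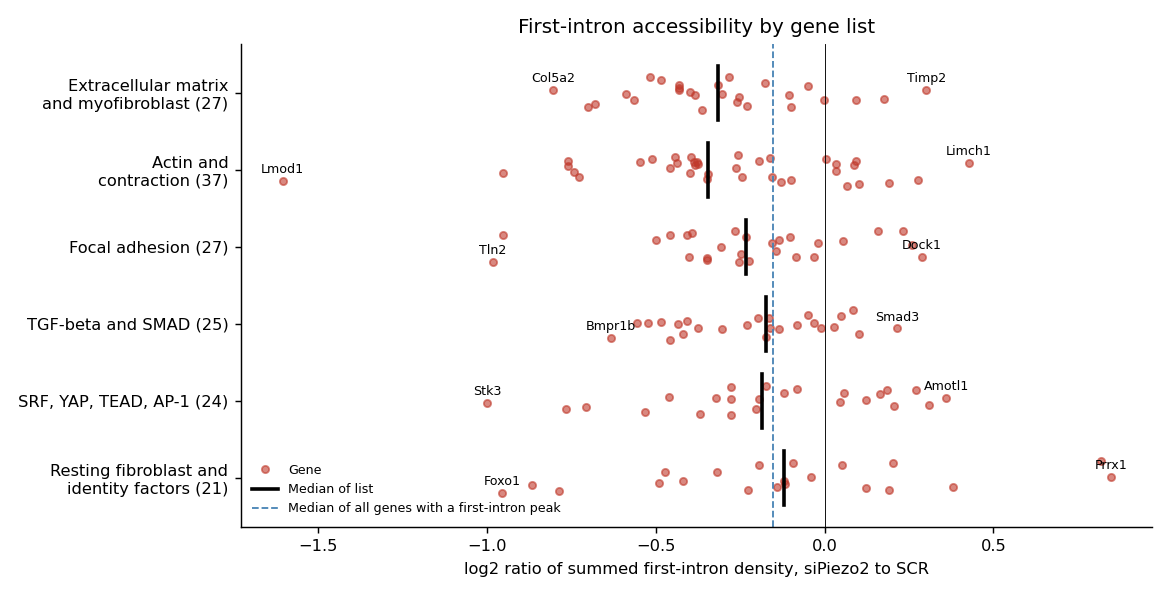
Log2 ratio of summed first-intron density, siPiezo2 to SCR (horizontal), of each gene with a first-intron peak in 6 lists (rows, number of genes in brackets). Points are genes, black bars are list medians and the dashed line is the median of all genes with a first-intron peak, -0.15. The bars of the matrix and actin lists lie lowest, at -0.32 and -0.34, and Prrx1 and Klf15 stand out at 0.85 and 0.82.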

How the data were processed

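The authors deposited 1 table, in which each row is a peak. Per the labels and the study's methods, reads were aligned with BWA 0.7.12, duplicates were removed with Picard and peaks were called with MACS2. The labels name mm10, but only 2.43% of 4895 matched host transcripts had GRCm38 coordinates and a scaffold was specific to GRCm39, so no sequence was taken from the genome in use here. The deposited signal columns are read densities, which the authors brought to a common scale by regressing log2 ratios on mean log2 densities. The table's own fold, M and p-value columns hold the authors' comparison and were not used.

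First-intron peaks were the rows annotated as intron 1 of a transcript, and the host gene was that of the annotation. Log2 ratios used a pseudocount of 1. Whole reads in windows of 2000 bp were recovered from the densities (100% whole within 0.1), with the slope and intercept of the authors' fit found from the densities, and the recovery was tested on simulated data. Python 3.11.15, pandas 2.3.3 and scipy 1.17.1 were used. The annotation alone decided which peaks were members, but the choice of this class and of the gene lists was made with earlier results of these data known. Named genes were the 10 lowest and 10 highest strong peaks, the 4 densest genes per list, the 5 genes with most peaks, genes with 5 or more peaks on 1 side of 0, and Piezo2. Some genes that this rule gives are not reported here. With 1 library per condition no test was run. Alternatives changed the pseudocount, scaling, threshold and choice of peaks.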

Additional observations from a re-analysis of the deposited data

How the results depend on the processing

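The first-intron median of -0.15 was -0.019 under median-of-ratios scaling, -0.069 at the same total density, -0.016 under trimmed mean scaling, 0.0012 and so reversed with recovered reads at the same total, -0.13 in peaks above the median density and -0.013 in peaks called in both libraries. Lowered and raised peaks, 1337 and 261, were 798 and 536 under median-of-ratios scaling, 786 and 551 under trimmed mean scaling, 734 and 703 with recovered reads, 623 and 135 in the stronger peaks, 163 and 122 in peaks called in both, and 247 and 31 at a 2-fold threshold, with 412 raised at the same total density. The choices by strength or calling used fewer peaks, and a higher threshold passes fewer. The cause of the other shifts was not tested. The TGF-β and SMAD list was at -0.037 under median-of-ratios scaling, -0.033 under trimmed mean scaling and 0.045, reversed, in peaks called in both. In peaks called in both the matrix list was at -0.045, actin at -0.089 and focal adhesion at -0.026. Under median-of-ratios and trimmed mean scaling the matrix list was at -0.18 and -0.17, actin at -0.21 and -0.20, focal adhesion at -0.096 and -0.092, and SRF, YAP, TEAD and AP-1 at -0.045 and -0.042. Focal adhesion was at -0.045 with recovered reads. The pseudocount of 0.1, autosomes, distance over 3 kb, hosts with the nearest TSS and separate windows, the last chosen after seeing the data, moved no median or count past its limit. No paired analysis was possible because each condition had 1 library. A median peak of 59 and 36 reads limits single peaks to large differences.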

Other observations

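Hosts that the table assigns to a transcription factor family held 653 first-intron peaks in 269 genes, with a median log2 ratio of -0.12, 13.6% lowered and 3.06% raised. The 160 peaks in C2H2 zinc finger genes had a median of -0.14 with 11.2% lowered and 6.25% raised. The 44 peaks in bZIP genes had a median of -0.19, with 20.5% lowered and 0 raised, and the 41 peaks in homeobox genes had a median of -0.16, with 19.5% lowered and 9.76% raised. Of all peaks, 13.5% were lowered and 3.21% raised, and the family shares rest on 9 lowered bZIP peaks and on 8 lowered and 4 raised homeobox peaks. The 43 peaks in genes of the THR-like family, as the table names it, had a median of -0.06, with 18.6% lowered and 0 raised, and a median of 0.07 with reads at the same total. With reads at the same total the median of the bZIP peaks was -0.14 and that of the homeobox peaks was -0.06. These families were not tested against other hosts.

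First-intron peaks of the X chromosome numbered 156, with a median of -0.25 and 20.5% lowered, against 14.1% of all first-intron peaks. The medians ran from -0.20 on chromosome 4 to -0.09 on chromosome 12 among the autosomes. With reads at the same total the X chromosome was at -0.01.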
